A study of Mus musculus with 6 samples.

Results

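Alpha and beta tubulin form the paired building block of the microtubule, and mammals carry several genes, called isotypes, for each of the 2 chains. The set described here was chosen by name and holds 9 mouse isotype genes, the alpha genes Tuba1a, Tuba1b, Tuba1c, Tuba4a and Tuba8 and the beta genes Tubb2a, Tubb2b, Tubb5 and Tubb6. Of these, 8 were read by the array, through 14 of its 41174 non-control probes. No probe carried an accession that maps to Tuba1b, so this isotype was not analysed here. All 8 genes passed the filter on dim probes, which kept 18211 genes in all, because each of the 14 probes was well above background on all 6 arrays.

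The study compared primary megakaryocytes, the cells that make platelets, cultured from C57BL/6 mouse fetal liver of E13.5 embryos. The 3 samples labelled p45-/- carry in their name the loss of p45, which pairs with a small Maf protein as the larger chain of NF-E2, a transcription factor, and the 3 WT samples are labelled wild type. No other allele or agent is named in the labels for either group, and culture conditions and the number of embryos behind a sample are not given in the sources used here. The labels name cultured megakaryocytes as the source but whole embryos as the origin of the extracted RNA, and this contradiction is not resolved. Each sample was hybridised in 1 colour to an Agilent array, and a level below is the log2 processed intensity of a probe minus the 75th percentile of its array, called the relative log2 level. Probes differ in brightness for technical reasons, so levels are compared between arrays and never between probes.

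Microtubules drive the shape changes by which a mature megakaryocyte releases platelets. They line and slide along the long extensions called proplatelets, and in the finished platelet they coil into a ring under the membrane, the marginal band. Megakaryocytes use general isotypes together with lineage-restricted ones, of which the beta isotype encoded by Tubb1 is the best known. Mice without p45 make hardly any platelets, and Tubb1 is a known p45-dependent gene. Tubb1 had no probe with a matching accession and was not analysed here.

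The 5′ flanks of Tuba8 and Tuba4a are shown because these genes had the largest differences between the groups. Each line holds the 250 bases before the start site, from RefSeq on build GRCm38.p6, in lower case. Capitals mark matches to any of 3 motifs on either strand, the NF-E2 and AP-1 core TGANTCA, the GATA motif GATAA and the ETS motif CGGAA, and no 2 matches overlap. The Tuba8 sequence lies at chr6:121210484-121210733 on the plus strand and the Tuba4a sequence at chr1:75219295-75219544 on the minus strand.
Tuba8: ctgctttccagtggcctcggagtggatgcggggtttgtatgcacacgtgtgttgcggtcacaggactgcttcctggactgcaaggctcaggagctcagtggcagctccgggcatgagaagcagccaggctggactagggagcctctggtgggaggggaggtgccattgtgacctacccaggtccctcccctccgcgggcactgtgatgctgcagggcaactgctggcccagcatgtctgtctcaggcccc
Tuba4a: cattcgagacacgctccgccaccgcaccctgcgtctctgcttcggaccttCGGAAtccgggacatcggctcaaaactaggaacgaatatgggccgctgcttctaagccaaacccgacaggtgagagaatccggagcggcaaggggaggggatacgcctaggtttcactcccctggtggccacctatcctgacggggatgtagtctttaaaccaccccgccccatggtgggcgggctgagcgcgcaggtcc

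The Tuba8 flank held none of the 3 motifs, and the Tuba4a flank held 1 match to CGGAA, starting at position -200. RefSeq flanks were matched for 7 of the 9 isotypes, and TGANTCA was found in 0 of the 7. Among all 32851 flanks of the same length, 6.75% held TGANTCA, 22.6% held GATAA and 25.2% held CGGAA. In the set, GATAA was found in the Tubb5 flank alone, at position -205. These matches describe letters in a window of 250 bases and say nothing about binding.

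Array quality set limits on every comparison. The 75th percentile of the processed signal ranged from 135 on p45-/- array 1 to 589 on p45-/- array 3, and the share of probes well above background per array was 57.8% to 64.8%. Across genes p45-/- array 1 correlated with the other arrays at 0.782 to 0.884, against 0.941 to 0.984 among the remaining arrays. Medians of gene lists and the differences of the tubulin genes are therefore given with and without it. Further probes of a gene are given with all arrays only. The probe of Nfe2, which encodes p45, read 4.87, 6.43 and 6.34 in p45-/- and 5.24, 6.57 and 6.33 in WT, where values here and below are in the order of replicates 1, 2 and 3, a difference of -0.17 (SE 0.57, limma adjusted p = 0.923). The position of this probe relative to the deletion is not known here, so it does not check the labels, and p45-/- means here only that an array was so labelled. The design text speaks of independent experiments, without saying which embryos went into each, and precision is limited by having 3 arrays a group.

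Most tubulin isotypes had lower means in the p45-/- arrays, with the largest differences in the alpha isotypes Tuba8 and Tuba4a, and none passed the test over all genes. Of the 8 genes, 7 had a lower mean and 1, Tubb2b, a higher one, where 53.5% of all genes tested had a lower mean. The median difference of the 8 was -0.72 on the log2 scale, against -0.048 over all 18211 genes. Without p45-/- array 1 the median of the 8 was -0.40, and without both replicate 1 arrays it was -0.79. The groups did not overlap, with every p45-/- array below every WT array, for 3 of the 8 genes (Tuba8, Tuba4a and Tubb6), where 8.43% of all genes were lower in this way, and for 0 of the 8 in the higher direction, where 4.77% were. Of the 14 probes 4 were lower without overlap, against 8.95% of all probes kept. All 7 genes with a lower mean were lower in each of the 3 pairs of arrays that share a replicate number, where 23.6% of all genes were. In pair 1 the median of all genes was itself -0.37, beside -0.52 for the 8. The medians of all genes and of the 8 were 0.12 and -0.86 in pair 2, and 0.064 and -0.61 in pair 3.

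With limma's moderated test and Benjamini-Hochberg adjustment over all genes, 0 of the 8 genes had an adjusted p under 0.05, and 0 of all genes (0%) did. At an unadjusted p under 0.05 there were 2 of the 8, Tuba8 and Tuba4a, both lower, where 3.33% of all genes were lower and 2.62% higher at that level. With the replicate number as a block, again 0 of the 8 passed after adjustment, while 5 of all genes (0.0275%) did. In that fit 4 of the 8 were lower at an unadjusted p under 0.05, where 5.96% of all genes were lower and 14.3% higher. Under other settings, Tuba8 and Tuba4a passed by limma with the block and normexp background correction (adjusted p = 0.0049 and 0.011), where 285 of 18211 genes passed. They also passed by limma with the block and median scaling (adjusted p = 0.00083 and 0.0031), where 1590 genes did. Both settings were chosen after seeing the data. In the latter the SE was 0.51 for each of the 8, so p followed the size of the difference alone. Tuba8 passed by limma with array weights (adjusted p = 0.016), where 514 genes did.

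**Figure D1:**
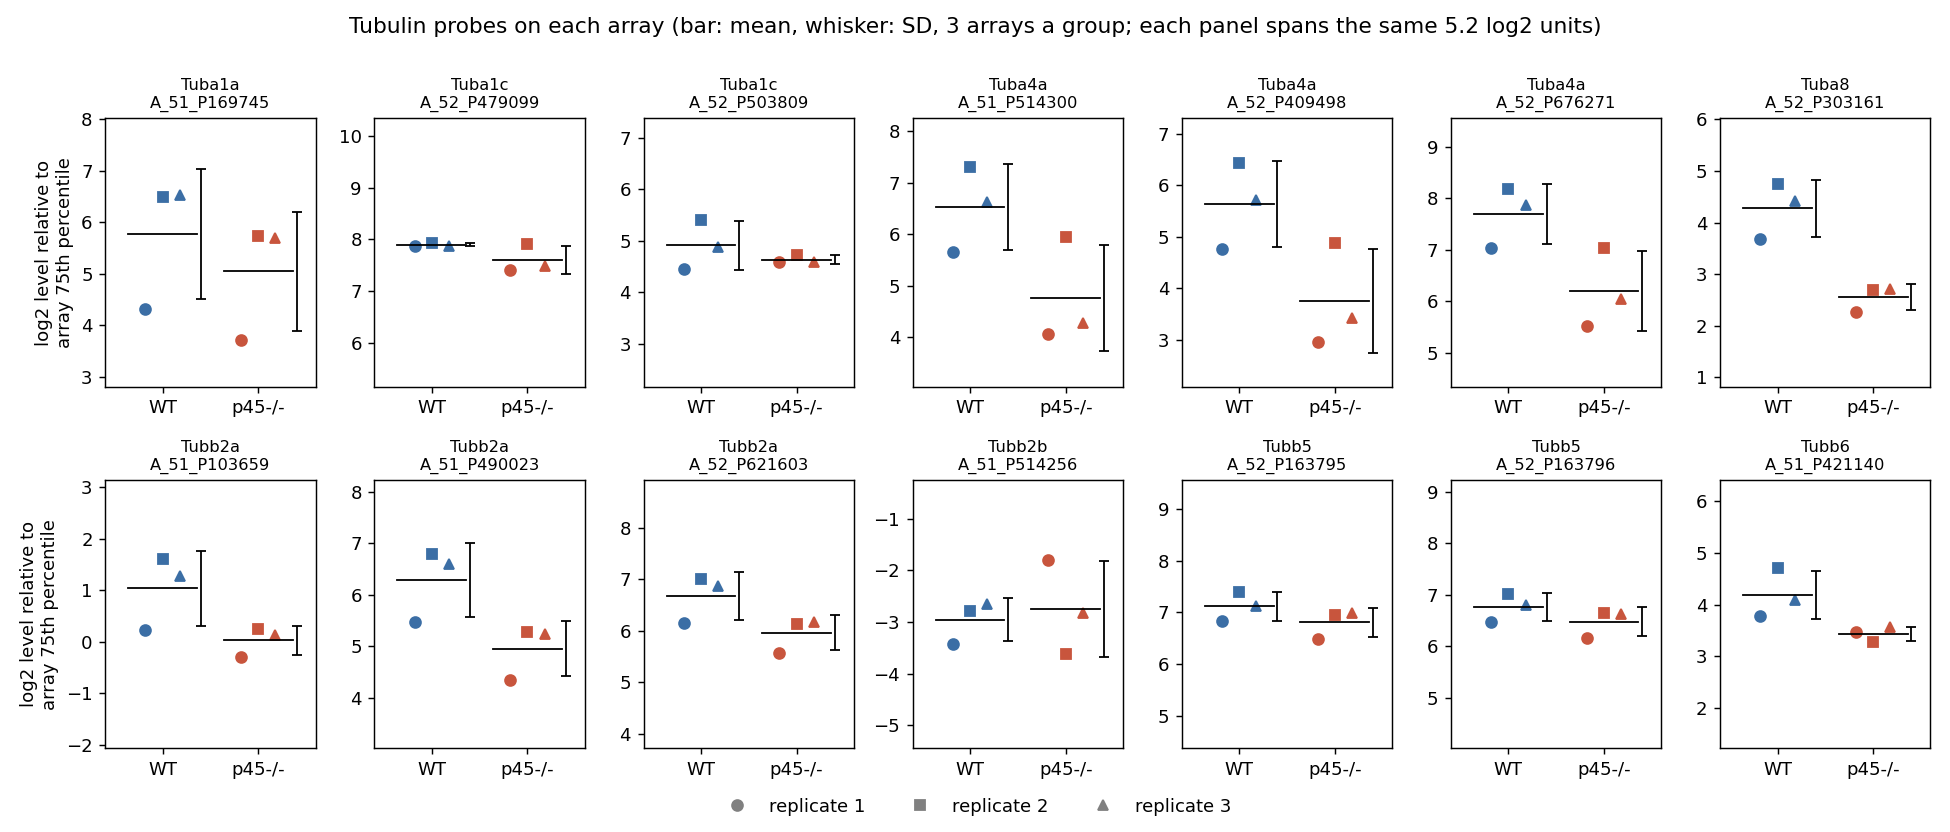
Relative log2 level of each of the 14 tubulin probes on every array, WT in blue and p45-/- in red, with marker shape for the replicate number, bars for the group mean and whiskers for the SD (n = 3). The Tuba8 points of the groups are apart, from 2.27 to 2.71 in p45-/- and from 3.67 to 4.75 in WT, while those of Tubb5 interleave.

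Tuba8 encodes a divergent alpha isotype with restricted expression. Its single probe, A_52_P303161, read 2.27, 2.69 and 2.71 in p45-/- and 3.67, 4.75 and 4.42 in WT. The highest p45-/- array lay clearly below the lowest WT array, and the p45-/- arrays were close to each other. WT had a mean of 4.28 ± 0.55 (SD, n = 3) and p45-/- one of 2.56 ± 0.25 (SD, n = 3), a difference of -1.72 (SE 0.37, 95% interval -2.61 to -0.83), or 3.29-fold lower in p45-/-. The limma adjusted p was 0.422 (unadjusted 0.00279), and 0.0928 with the replicate block. Of all genes, 0.884% had a more negative difference. Without p45-/- array 1 the difference was -1.58 (adjusted p = 0.355). Without both replicate 1 arrays it was -1.88 (limma adjusted p = 0.0706).

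The pairs gave Tuba8 differences of -1.40, -2.06 and -1.70 for replicate numbers 1, 2 and 3. Slide 1 held replicate 3 of each group, and slide 2 held the remaining 4 arrays. Within slide 2 the difference was -1.73, and within slide 1, with 1 array a group, it was -1.70.

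Tuba4a encodes an alpha isotype that is abundant in platelets and whose gene does not encode the C-terminal tyrosine of most alpha isotypes. In mice, mutation of Tuba4a is known to disturb platelet formation. It was read by 3 probes. The brightest, A_52_P676271, read 5.51, 7.04 and 6.04 in p45-/- and 7.04, 8.17 and 7.87 in WT. All p45-/- arrays were below all WT arrays, but p45-/- array 2 and WT array 1 were nearly level, so this separation rests on a very small gap. The WT mean was 7.69 ± 0.58 (SD, n = 3) and that of p45-/- 6.20 ± 0.77 (SD, n = 3). Tuba4a thus differed by -1.50 (SE 0.50, 95% interval -2.70 to -0.29), or 2.82-fold lower, with a limma adjusted p of 0.704 and 0.115 with the replicate block. Without p45-/- array 1 it was -1.16 (adjusted p = 0.584). Without both replicate 1 arrays it was -1.48 (limma adjusted p = 0.180).

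The other Tuba4a probes gave larger differences with overlapping groups. Probe A_52_P409498 read 2.95, 4.87 and 3.42 in p45-/- and 4.76, 6.43 and 5.71 in WT, a difference of -1.88. Probe A_51_P514300 read 4.06, 5.94 and 4.28 in p45-/- and 5.66, 7.31 and 6.62 in WT, a difference of -1.77. In both, the overlap came from p45-/- array 2 lying above WT array 1. All 3 probes had a lower level in p45-/- in each of the 3 pairs.

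Tuba1a and Tuba1c lie beside Tuba1b in the genome and encode near-identical general alpha isotypes, of which Tuba1a is known for its role in neurons. The Tuba1a probe read 3.72, 5.74 and 5.70 in p45-/- and 4.31, 6.48 and 6.53 in WT, for arrays 1, 2 and 3. Replicate 1 was far below the other replicates in both groups, so the groups overlapped. The estimate was -0.72 (SE 0.81, 95% interval -2.67 to 1.22, adjusted p by limma = 0.772), and with the replicate block its SE fell to 0.28 (adjusted p = 0.226). The pairs gave -0.59, -0.74 and -0.83. The value was -0.054 without p45-/- array 1, -1.45 without WT array 1 and -0.79 without both, so the unpaired value depends on which replicate 1 array is kept. It was also -0.37 and -0.34 without WT array 2 and WT array 3, and -0.41 with quantile normalization.

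Tuba1c differed little between the groups. Its brightest probe, A_52_P479099, read 7.41, 7.91 and 7.48 in p45-/- and 7.88, 7.93 and 7.88 in WT, and p45-/- array 2 lay within the WT range. The estimate was -0.30 (SE 0.28, 95% interval -0.97 to 0.37, adjusted p by limma = 0.734), and -0.20 without p45-/- array 1. It was -0.45 without p45-/- array 2, -0.12 with quantile normalization and -0.56 with normexp background correction. Its other probe, A_52_P503809, read 4.59, 4.73 and 4.58 in p45-/- and 4.46, 5.41 and 4.87 in WT, with a difference of -0.28 and WT array 1 below every p45-/- array. Of all genes, 27.8% had a more negative difference than Tuba1c, and the interval leaves room for a loss of nearly 1 log2 unit.

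**Figure D2:**
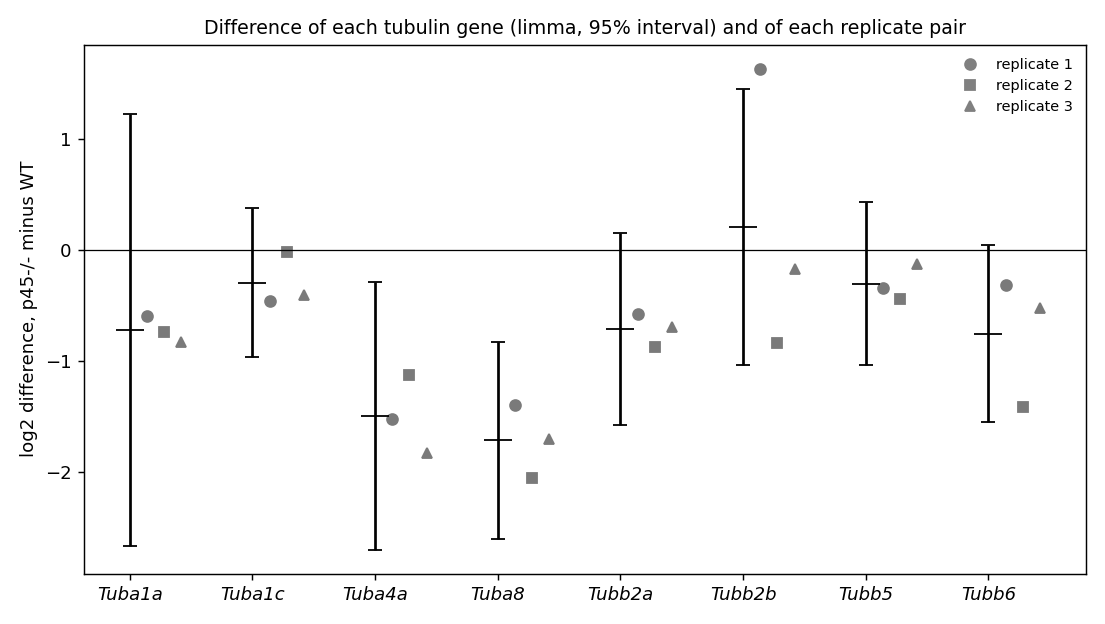
Log2 difference (p45-/- minus WT) of each tubulin gene from limma with its 95% interval (bars) and the differences of the replicate pairs (grey markers, 1 a pair). The intervals of Tuba8 (-2.61 to -0.83) and Tuba4a (-2.70 to -0.29) lie below 0 before adjustment, and the pairs of Tubb2b scatter on both sides of it.

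Tubb5 encodes the main beta isotype of dividing cells. Its probe A_52_P163795 read 6.49, 6.95 and 6.99 in p45-/- and 6.84, 7.39 and 7.12 in WT, with p45-/- arrays 2 and 3 inside the WT range. The estimate was -0.31 (SE 0.31, 95% interval -1.04 to 0.43, adjusted p by limma = 0.747), and -0.15 without p45-/- array 1. It was -0.17 without WT array 2, -0.012 with quantile normalization and -0.54 with normexp background correction. The other probe, A_52_P163796, gave -0.28, and both probes moved alike, with estimates 0.027 apart.

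Tubb2a and Tubb2b are neighbouring genes with near-identical products, both known from neurons. The brightest Tubb2a probe, A_52_P621603, read 5.56, 6.13 and 6.18 in p45-/- and 6.15, 7.01 and 6.88 in WT. Only p45-/- array 3 lay above a WT array, which was WT array 1. The estimate was -0.72 (SE 0.36, 95% interval -1.58 to 0.15, adjusted p by limma = 0.704, and 0.229 with the replicate block), and -0.52 without p45-/- array 1. It was -0.43 with quantile normalization. The other probes gave -1.33 (A_51_P490023) and -1.0042 (A_51_P103659). For probe A_51_P490023, with 4.34, 5.28 and 5.24 in p45-/- and 5.46, 6.79 and 6.60 in WT, the groups did not overlap. The 3 probes of Tubb2a thus differed by up to 0.61 in their estimates, the widest range among the isotypes with several probes, against 0.39 for Tuba4a, 0.027 for Tubb5 and 0.022 for Tuba1c.

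The Tubb2b probe was dim, with processed signals of 31.6 to 91.3 across the arrays. It read -1.79, -3.63 and -2.83 in p45-/- and -3.42, -2.79 and -2.66 in WT. The highest value was on p45-/- array 1 and the lowest on p45-/- array 2, so the group was spread on both sides of WT. The difference of 0.21 (SE 0.52, 95% interval -1.04 to 1.45, adjusted p by limma = 0.898) turned to -0.27 without p45-/- array 1, to -0.028 without WT array 1, to -0.098 with quantile normalization and to -0.31 with median scaling. Its direction is not settled by these arrays.

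Tubb6 encodes a beta isotype known for its destabilising effect on microtubules when overexpressed. Its probe read 3.46, 3.28 and 3.56 in p45-/- and 3.78, 4.70 and 4.08 in WT. The p45-/- arrays were close together and all below WT, with the smallest gap to WT array 1. The estimate was -0.76 (SE 0.33, 95% interval -1.56 to 0.045, adjusted p by limma = 0.704, and 0.283 with the replicate block), or 1.69-fold lower. Without p45-/- array 1 it was -0.77, but it was -0.50 without WT array 2 and -0.45 with quantile normalization. The pairs gave -0.32, -1.42 and -0.53.

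**Figure D3:**
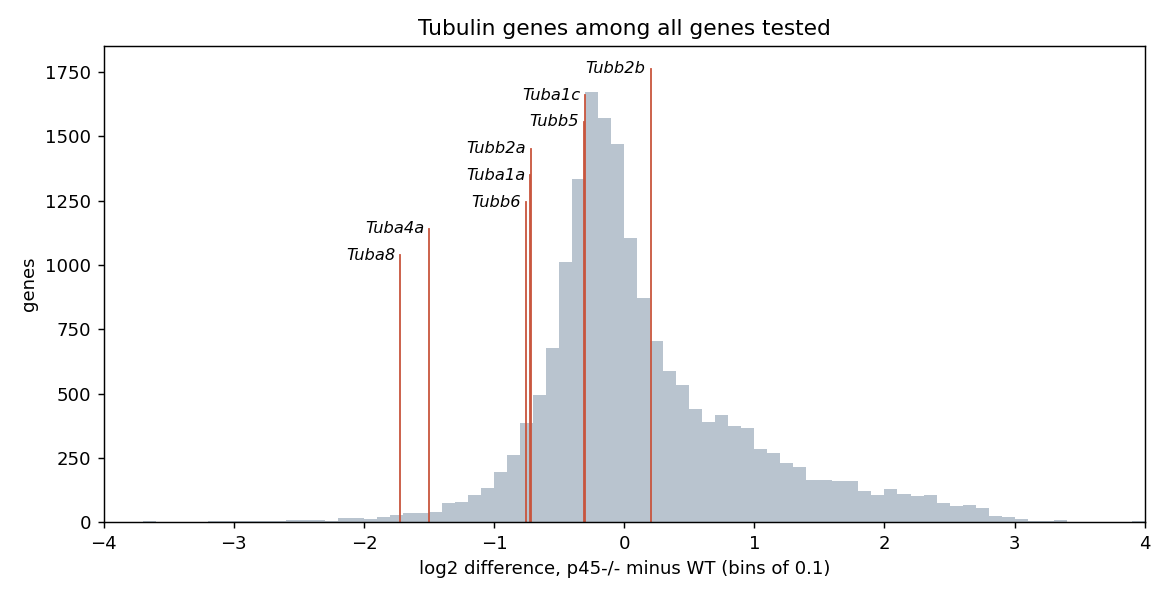
Distribution of the log2 difference (p45-/- minus WT) over the 18211 genes tested, in bins of 0.1, with red lines at the 8 tubulin genes. Tuba8 and Tuba4a lie in the left tail, with 0.884% and 1.34% of genes further left, while Tuba1c and Tubb5 lie near the peak.

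Because scaling moves all genes of an array together, isotypes were also set against another tubulin on the same array, which is free of it. Tuba1c served for the alpha genes, in place of Tuba1b, and Tubb5 for the beta genes. The difference Tuba8 minus Tuba1c was -5.13, -5.22 and -4.76 in p45-/- and -4.20, -3.18 and -3.46 in WT. Every p45-/- value lay below every WT value, and the mean fell by 1.42, or by 1.37 without p45-/- array 1. Only the shift between groups has meaning here, since the probes differ in brightness.

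The difference Tuba4a minus Tuba1c was -1.89, -0.87 and -1.44 in p45-/- and -0.83, 0.24 and -0.013 in WT, a shift of -1.20 with no overlap and a small gap between p45-/- array 2 and WT array 1. This shift was -0.95 without p45-/- array 1. Set against Tuba1c on all 6 arrays, 2.17% of all genes were lower in p45-/- without overlap. For Tubb2a minus Tubb5 the values were -0.92, -0.81 and -0.82 in p45-/- and -0.69, -0.38 and -0.25 in WT, a shift of -0.41 (-0.37 without p45-/- array 1). The groups did not overlap, where 3.30% of all genes were lower against Tubb5 in this way. For Tuba1a, Tubb2b and Tubb6 the groups overlapped. These shifts were not tested, and they do not show that any isotype was unchanged.

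**Figure D4:**
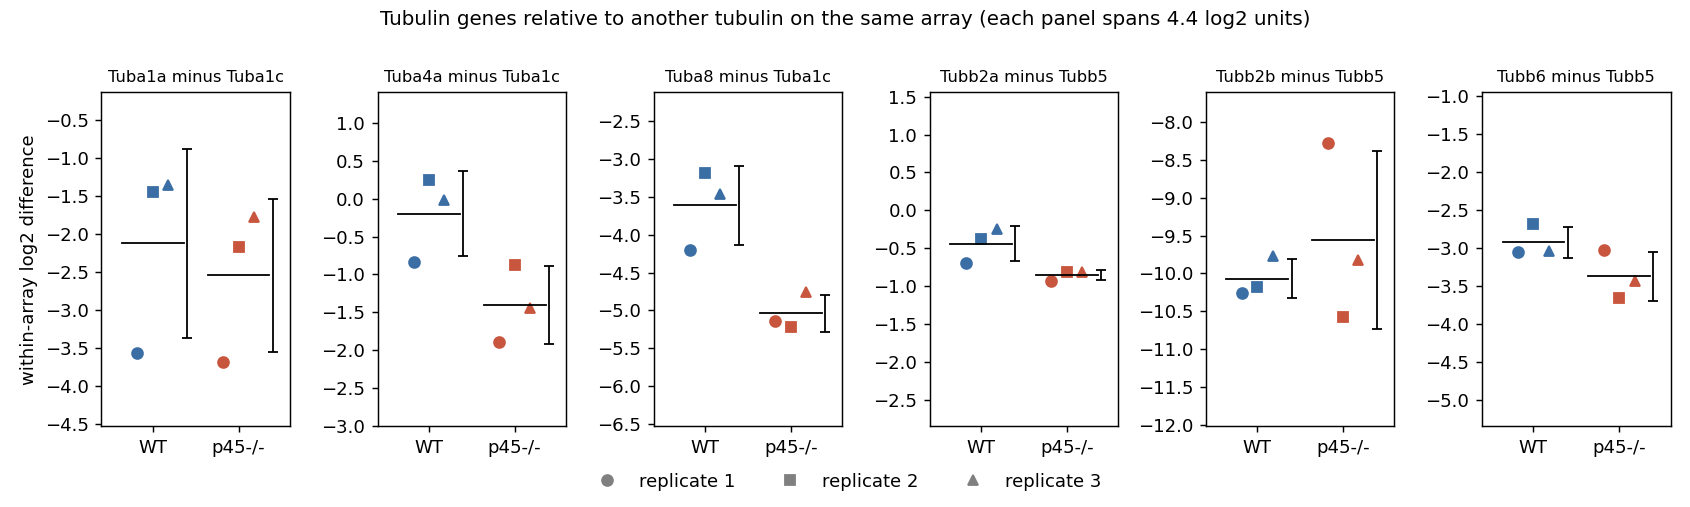
Log2 level of 6 tubulin genes minus that of Tuba1c (alpha genes) or Tubb5 (beta genes) on the same array, with means and SD (n = 3). The 2 groups are apart for Tuba8, Tuba4a and Tubb2a, with shifts of -1.42, -1.20 and -0.41, and overlap for Tuba1a, Tubb2b and Tubb6.

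Among the members, profiles over the 6 arrays, each centred on its own mean, were most alike for Tuba1c and Tubb5, with a root mean square difference of 0.21 log2 units. Tuba4a and Tuba8 differed by 0.37, and the least alike were Tuba1a and Tubb2b at 1.36. Outside the set, the genes most like Tuba8 by this measure, of 12934 with a symbol that were compared, were Rin3, Tmem131l and Spata13, at 0.11, 0.13 and 0.15, where the median over all genes was 0.92. Their differences between the groups were -1.64, -1.82 and -1.75. The genes most like Tuba4a were H2bc23, a histone H2B gene, Stx2, which encodes the membrane fusion protein syntaxin 2, and Gclm, a subunit of the enzyme that starts glutathione synthesis. They lay at 0.18, 0.21 and 0.22 and differed by -1.65, -1.40 and -1.33. Genes picked for likeness over these same 6 arrays must have a similar group difference, so the differences of both lists are no separate result.

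Of the other tubulin genes, by their brightest probe, all 6 of the 6 tested had a lower mean and 0 passed the test. Their median was -0.24, and -0.066 without p45-/- array 1, where Tubb3 and Tubd1, which encodes delta tubulin, turned to 0.13 and 0.16. The Tubb3 pairs gave 0.925, -0.685 and -2.29, so only pair 1 was higher. Its value of 0.13 keeps the low WT array 1 (-1.01) while the p45-/- array of that pair is left out. Of the 6, 1 was lower without overlap, against 8.43% of all genes. This was Tubb4b, a widely expressed beta isotype, which read 2.18, 2.63 and 2.80 in p45-/- and 2.85, 3.72 and 3.50 in WT. Its difference was -0.82 (SE 0.36, limma adjusted p = 0.704), and -0.64 without p45-/- array 1. Tube1, which encodes epsilon tubulin of the centriole, differed by -0.26 (SE 0.31, adjusted p = 0.781), and by -0.098 without it.

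The probes of Tuba3a, an alpha isotype known from testis, disagreed, and they are named here after their values were seen. Probe A_51_P145404 read 1.23, 1.12 and 1.10 in p45-/- and 2.29, 3.21 and 2.83 in WT, a difference of -1.63 with no overlap. The brighter probe A_51_P145402 differed by -0.21 and overlapped. Tubb3, the neuronal beta isotype, read -0.086, 3.20 and 1.48 in p45-/- and -1.01, 3.89 and 3.77 in WT, so its replicate 1 arrays were the lowest of both groups, as for Tuba1a. Several tubulin isotypes are known to be close in coding sequence. Probe sequences were not used here, and whether a probe also reads another isotype was not tested.

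Of 56 tested genes that fold, nucleate, bind, sever or modify tubulin or control its mRNA, 0 passed in either direction. The largest difference among them, 2.32 (SE 1.15, limma adjusted p = 0.704), was that of Stmn2, a stathmin known from neurons that binds free tubulin, named here after its values were seen. It read -1.79, -3.85 and -4.35 in p45-/- and -3.46, -7.62 and -5.86 in WT, with overlapping groups, and the difference was 1.55 without p45-/- array 1. Apart from the replicate 1 arrays, every Stmn2 level lay below the lowest of the dim Tubb2b probe (-3.63). The filter can be passed by 1 group alone, so the size of the Stmn2 difference is not settled. For folding, by prefoldin, the CCT chaperonin and the tubulin cofactors, 17 of 21 genes had a lower mean with a median of -0.16, which was 0.16 without p45-/- array 1. The 8 chaperonin subunit genes ranged from -0.22 (Cct6a) to 0.029 (Cct2). Of the 21 folding genes 1 was lower without overlap, against 8.43% of all genes. This was Tbcb, an alpha tubulin cofactor, which differed by -0.50 (SE 0.30), and Pfdn2, of prefoldin, differed by -0.42 (SE 0.30). Without that array they differed by -0.30 and -0.31.

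For the gamma tubulin ring complex, which starts new microtubules, 4 of 9 genes had a lower mean and the median was 0.00080, or 0.17 without p45-/- array 1. Tubgcp4 and Tubgcp6, which encode ring subunits, differed by -0.46 (SE 0.26) and 0.35 (SE 0.28), and by -0.41 and 0.25 without that array. With all arrays 1 of the 9, Tubgcp4, was lower without overlap, against 8.43% of all genes. Of the end-binding, stabilising, destabilising and severing proteins, 12 of 17 had a lower mean with a median of -0.18, or -0.0052 without p45-/- array 1. Clip1, a plus-end tracking protein, differed by -0.78 (SE 0.35) and Ckap5, a microtubule polymerase, by -0.60 (SE 0.28). These were the 2 of the 17 that were lower without overlap, against 8.43% of all genes. Without that array the values were -0.52 and -0.54.

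Among the enzymes of tubulin acetylation, tyrosination and deglutamylation 6 of 8 had a lower mean with a median of -0.25, or -0.125 without p45-/- array 1. Of the 8, 1 was lower without overlap, against 8.43% of all genes. This was Svbp, the partner of the vasohibin detyrosinases, which differed by -0.50 (SE 0.31), and Vash1, a vasohibin, differed by -0.81 (SE 0.68). Without that array they differed by -0.34 and -0.44. Ttc5, which recognises new tubulin chains and triggers decay of tubulin mRNA when free tubulin is high, differed by -0.42 (SE 0.31, limma adjusted p = 0.704), and by -0.30 without p45-/- array 1.

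Markers of cell types moved with the groups as well, and in bulk cultures fewer cells of a type and less RNA per cell cannot be told apart. The megakaryocyte markers were all present, and 9 of the 10 had a lower mean, with a median of -0.40 that was 0.039 without p45-/- array 1. Their summed linear level, relative to the 75th percentile, ranged from 855 to 1684 in p45-/- and from 1035 to 1765 in WT. Of 11 erythroid markers 10 had a higher mean, with a median of 2.07 (1.78 without that array). For 7 of the 11 every p45-/- array lay above every WT array, where 4.77% of all genes did. The sums of the 11 were 116 to 996 in p45-/- and 90.3 to 364 in WT, highest in each group on replicate 1. Hba-a1 weighed most in these sums, with 9.81 on p45-/- array 1 and 8.43 on WT array 1, and its groups overlapped.

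All 7 myeloid and mast cell markers had a lower mean, with a median of -0.87 (-0.90 without p45-/- array 1) and sums of 186 to 260 against 300 to 454. All 6 hepatoblast markers and all 8 stromal markers had a higher mean, with medians of 1.20 and 0.52, or 1.499 and 0.99 without that array. The hepatoblast sums ranged from 41.1 to 148 in p45-/- and from 34.1 to 59.6 in WT, and the stromal sums from 8.09 to 23.4 and from 7.71 to 15.4. Of 8 neuronal markers 4 (Map2, Dcx, Syt1 and Snap25) were below the filter, and the rest summed to 0.304 to 3.02 in p45-/- and 0.187 to 0.490 in WT, highest on p45-/- array 1. The median of these 4 was 1.78, and 0.54 without that array. Their levels were low, on WT array 2 -7.62 (Stmn2), -5.71 (Elavl3), -4.31 (Rbfox3) and -3.15 (Nefl). The filter can be passed by 1 group alone, so the size of this median is not settled. All 8 cycling cell markers had a lower mean with a median of -0.31, or -0.19 without p45-/- array 1, and sums of 52.9 to 66.3 against 57.3 to 87.9. The part of these shifts in the tubulin differences was not tested.

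**Figure D5:**
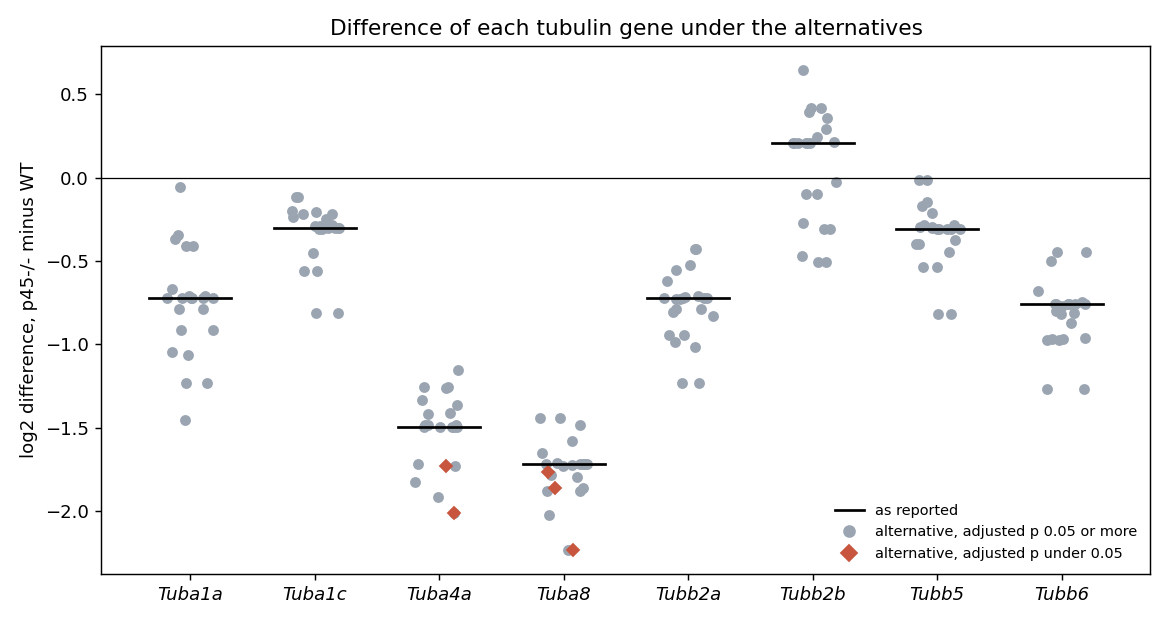
Log2 difference (p45-/- minus WT) of each tubulin gene as reported (black bars) and under each of the 23 alternatives (points), with red diamonds where the adjusted p was under 0.05. Tuba8 ranged from -2.23 to -1.44 and Tuba4a from -2.01 to -1.16, while Tubb2b fell on both sides of 0.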

How the data were processed

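Each of the 6 arrays gave 1 file. The authors extracted spot intensities with Agilent Feature Extraction, version 10.7.3.1 per the file headers and 10.1 per the submitters' processing notes. The deposited processed intensity is background-subtracted and detrended within an array, linear, and not scaled between arrays. The deposited spot flags (well above background, saturated, non-uniform, population outlier) are a score of 0 or 1 per the file headers.

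Control spots were left out, outlier spots (32 to 80 per array) set to missing, log2 values averaged per probe, and each array's 75th percentile over probes subtracted. No spot was saturated. A probe was kept when every array of a group, either group, read it well above background, which left 23958 of 41174. RefSeq accessions matched without versions to a GRCm38.p6 gene table, used for names, gave 26690 probes a symbol. Of the 18211 genes tested, 5263 had no symbol and stand for an accession. A gene is its brightest probe, and every tubulin probe is also given. The test was limma 3.58.1 (lmFit, then eBayes, under R 4.3.3), two-sided, Benjamini-Hochberg adjusted over all genes, threshold 0.05. In a simulation of this comparison over 18211 genes, 200 of them changed, the fit recovered 19% of changes of 2 and 59% of changes of 4 on the log2 scale. These shares hold for that number of changed genes only. The smallest p of an exact permutation test in this design is 0.1, so none was run.

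Arrays sharing a replicate number deviated together from their group means (r = 0.647, 0.589 and 0.270 for replicates 1, 2 and 3, all above 0.1), although p45-/- array 3 correlated more with WT array 2 (0.616). Deviations from a mean of 3 arrays are tied to each other, so these values are not independent and do not settle the pairing. The reported test has no block, and blocking on the replicate number is an alternative, given beside the results. Within-array differences were planned against Tuba1b and taken against Tuba1c, since Tuba1b had no probe. The normexp alternative used median signals because the files give no mean signal.

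Named by rule were all members, Nfe2, and the 3 genes most like Tuba8 and like Tuba4a. Of each pathway list except the cycling cell markers, the 2 genes with the smallest unadjusted p were also named. Other genes, such as Cct2, Cct6a, Tubd1 and single markers, were named outside this rule. Members, lists and tests were chosen with earlier results of these data known. The alternatives varied block, slide, background correction, scaling, input table, filter, probe choice, array weights and arrays left out.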

Additional observations from a re-analysis of the deposited data

How the results depend on the processing

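Over 23 alternatives, 5 of them chosen after seeing the data, Tuba1a, Tuba1c, Tuba4a, Tuba8, Tubb2a, Tubb5 and Tubb6 kept a lower mean in p45-/-. The count of tubulin genes past the threshold was 0 as reported and with the replicate block. It was 2 (Tuba8 and Tuba4a) with normexp background correction or median scaling together with the block, both settings chosen after seeing the data. With array weights (0.0967 for p45-/- array 1) it was 1 (Tuba8). The count over all genes, 0 as reported, was 5 with the replicate block, 285 with normexp and the block, 10 with median scaling, 1590 with median scaling and the block, 514 with array weights and 18 without both replicate 1 arrays and no block. With quantile normalization it was 0 with and without the block. Leaving out each array in turn gave 0 tubulin genes each time and 0 to 1 genes in all. The median tubulin difference, -0.72, was -1.23 with median scaling and -0.42 with quantile normalization, each with or without the block, and -0.97 to -0.40 leaving out each array, nearest 0 without p45-/- array 1 (-0.40), with -0.43 and -0.48 without WT array 2 and WT array 3. Median scaling moved the median of all genes to -0.56, and relative to it Tuba8 lay at -1.67 and Tuba4a at -1.45, as under the 75th percentile. With quantile normalization Tubb5 lay at -0.012, or 0.013 relative to the median of all genes.

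Tubb2b, 0.21 as reported, turned to -0.098 with quantile normalization (with and without the block), -0.31 with median scaling (likewise), -0.47 with array weights, -0.27 without p45-/- array 1, -0.028 without WT array 1 (leaving out each array gave -0.27 to 0.65) and -0.51 without both replicate 1 arrays (likewise). The cause was not tested for any of these. The adjusted p of Tuba8 ranged from 0.000827 to 0.998 and that of Tuba4a from 0.00309 to 0.998 over the alternatives. With the replicate block as the only change no tubulin call changed. All 14 tubulin probes were well above background on every array.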
